A study of Bos taurus with 27 samples.

Results

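The transcripts described here were those of 44 genes of fatty acid metabolism and lipid droplets, chosen by gene symbol from the 32637 genes counted in bovine blastocysts. All 44 symbols were found in the count table, and 39 of them passed the limit on abundance of at least 1 CPM (counts of a gene per 1e+06 counts of the pool) in 12 pools, as did 12310 genes in all. The samples were 27 pools of 2 in vitro produced blastocysts, all at stage 7 and of quality 1 on the IETS scale. Follicular fluid had been present while their oocytes matured, and it came from preovulatory follicles of either greater or lesser maturity. A 3′ RNA sequencing library was made from each pool. The labels number the pools but do not place them in a follicle maturity treatment or an IVF replicate. Values are therefore given over all 27 pools as lowest, median and highest, no treatments were compared, and relations could not be recomputed within replicates.

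A cell makes fatty acids in the cytosol from acetyl-CoA, lengthens and desaturates them at the endoplasmic reticulum, joins them to glycerol, and stores the resulting triacylglycerol in lipid droplets coated by perilipins. When the fatty acids are used, lipases release them, acyl-CoA synthetases activate them, the carnitine shuttle carries them into mitochondria, and beta-oxidation shortens them step by step. Bovine oocytes and embryos are known for their abundant lipid droplets.

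Pools held from 10517606 to 44253564 counts on genes (median 22293594), and 3 counts were equal to between 0.0678 and 0.285 CPM. The 100 most counted genes held between 26.8% and 32.0% of the counts of a pool. The 10 trophectoderm markers all passed the abundance limit, with a summed level of 16309 to 39915 CPM, most of it from the keratin KRT8. Epiblast markers summed to between 344 and 1269 CPM. Hypoblast markers summed to between 54.6 and 405 CPM, with SOX17 and FOXA2 at a median of 0. Cumulus markers reached 62.9 CPM and leukocyte markers 25.3 CPM in sum. Pool 31 had the highest trophectoderm sum and the lowest epiblast sum, and pool 32 had the highest epiblast sum. Both pools recur below, so results that rest on them are given with and without them.

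The median level of the 39 members retained was 44.0 CPM, compared with 14.4 CPM over all retained genes. Of these members, 32 reached 1 CPM in every pool and 10 had a median above 100 CPM. CPM in a 3′ library was not divided by transcript length, so the levels below describe each gene over the pools and do not rank genes against each other.

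**Figure D1:**
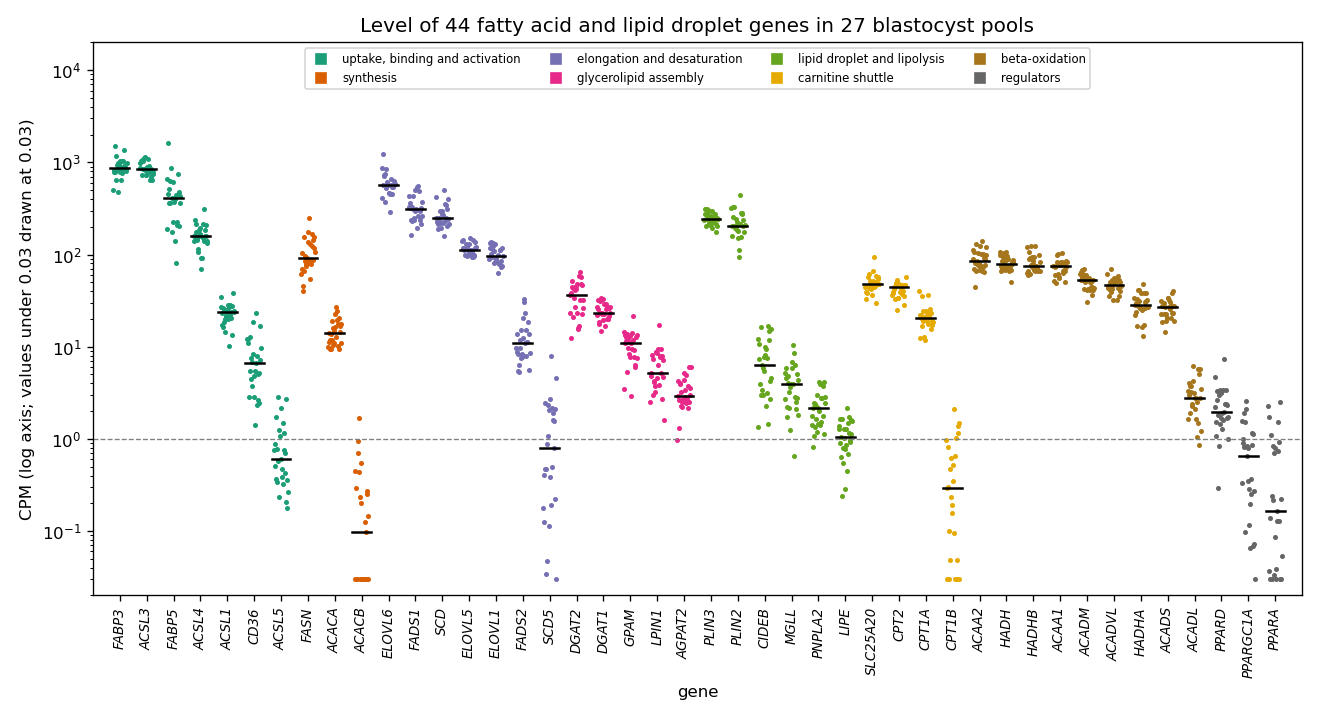
Level of each of the 44 genes (CPM, log axis) in each of the 27 pools, grouped and coloured by role; points are pools, black bars are medians and the dashed line is 1 CPM. Medians lay between 0.0973 CPM (ACACB) and 878 CPM (FABP3), and FABP5, CD36 and SCD5 spread more widely over the pools than PLIN3, ELOVL5 or ACSL3.

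The first group takes up, binds and activates fatty acids. The level of FABP3, a cytosolic fatty acid binding protein, was 477 CPM at the lowest, 878 CPM at the median and 1503 CPM at the highest pool. FABP5, the epidermal form of this protein family, ranged from 80.3 CPM in pool 32 to 1634 CPM in pool 9, with a median of 409. That is a 20.3-fold range, whereas FABP3 spanned 3.15-fold over the same pools. FABP5 therefore took between 7.24% (95% exact binomial interval 6.85 to 7.63) and 67.4% (67.0 to 67.9) of the summed counts of both genes, with a median of 30.5%. These intervals cover counting error only, since reads and not molecules were counted. CD36, a membrane protein that takes up fatty acids, was at 1.42, 6.68 and 23.4 CPM at the lowest, median and highest pool.

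Acyl-CoA synthetases link a free fatty acid to coenzyme A. ACSL3, the member of this family known from the surface of growing lipid droplets, was steady at 644 to 1153 CPM (median 838). ACSL4, which prefers arachidonic acid and is the 1 X-linked member (chromosome X, 58032529 to 58110133), ranged from 70.5 to 311 CPM with a median of 158. ACSL1 was at 10.2 to 38.6 CPM (median 23.6). ACSL3 held 65.9% to 91.7% of the counts of the 4 synthetases, with a median of 81.8%, and ACSL4 held 5.88% to 31.8%. The fourth, ACSL5, reached 1 CPM in 8 pools, fewer than the limit asks for, and its highest level was 2.82 CPM. ACSL6, a synthetase outside the members and left out of these shares, was at 127 to 262 CPM (median 200).

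Synthesis begins with acetyl-CoA carboxylase, which makes malonyl-CoA, and is completed by fatty acid synthase. FASN (chromosome 19, 50776231 to 50794939) ranged from 40.3 CPM in pool 9 to 247 CPM in pool 31, with a median of 92.6. The second highest pool was at 177 CPM, so pool 31 stood above the others. The cytosolic carboxylase ACACA was at 9.34 to 26.8 CPM (median 14.0), again highest in pool 31. The mitochondrial form ACACB reached 1 CPM in 1 pool and had no count in 13, and ACACA made up a median of 99.3% of the counts of the pair.

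Among the elongases, ELOVL6, which extends saturated chains, was at 291 to 1238 CPM (median 574), with the highest level in pool 9. ELOVL5, which extends polyunsaturated chains, varied least of all retained members, from 93.2 to 150 CPM (median 113). ELOVL1, an elongase of very long chains, was at 63.2 to 135 CPM (median 95.5). The desaturases varied more than ELOVL1 and ELOVL5. SCD, which inserts a double bond into stearic and palmitic acid (chromosome 26, 21263976 to 21279185), was at 159 CPM in pool 32, 246 CPM at the median and 507 CPM in pool 31. SCD5, a second stearoyl-CoA desaturase, reached 1 CPM in 12 pools, the number the limit asks for, and was at 7.86 CPM in pool 31. FADS1, the delta-5 desaturase of polyunsaturated fatty acids, ranged from 164 to 547 CPM with a median of 315. FADS2, the delta-6 desaturase of the same pathway, ranged from 5.28 to 32.8 CPM with a median of 11.1, highest in pool 31. FADS1 and FADS2 overlap by 677 bases in the RefSeq annotation of ARS-UCD2.0 (chromosome 29, 40244036 to 40351218 and 40350542 to 40387559). The strand setting of the read counting is not given in the sources used here, so reads in the overlap are uncertain for both.

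The next group assembles triacylglycerol. GPAM, which adds the first acyl chain to glycerol 3-phosphate, was at 2.95 to 21.3 CPM (median 11.03), and AGPAT2, which adds the second, at 0.980 to 6.07 CPM (median 2.88). LPIN1, a phosphatidate phosphatase, was at 1.60 to 17.1 CPM (median 5.16), with the highest level in pool 31. Genes of these families outside the members were counted as well. Their medians were 0.535 CPM (GPAT2), 81.7 CPM (GPAT3), 1.68 CPM (GPAT4), 43.7 CPM (LPIN2) and 0.709 CPM (LPIN3). For AGPAT1, AGPAT3, AGPAT4 and AGPAT5 they were 0.147, 21.6, 11.9 and 148 CPM. Of the acyltransferases that complete triacylglycerol, DGAT1 was at 14.8 to 33.3 CPM (median 23.3) and DGAT2 at 12.5 to 65.2 CPM (median 36.0). DGAT1 held 23.4% (21.2 to 25.8) of the counts of this pair in pool 35 and 72.2% (68.6 to 75.6) in pool 9, with a median of 41.1%, so the pools differed in which of the pair was more counted.

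On the lipid droplet, PLIN2 and PLIN3 are coat proteins. PLIN2 (chromosome 8, 25117164 to 25131174) was lowest in pool 31 at 94.7 CPM, had a median of 205 CPM and was highest in pool 32 at 439 CPM. PLIN3 was at 175 to 313 CPM (median 244), a 1.79-fold range compared with 4.64-fold for PLIN2. CIDEB, a droplet protein of lipid transfer, ranged from 1.34 to 16.6 CPM (median 6.30). The lipases act one after the other on stored triacylglycerol. PNPLA2, the triacylglycerol lipase, was at 0.826 to 4.12 CPM (median 2.17), LIPE, the hormone-sensitive lipase, at 0.242 to 2.15 CPM (median 1.05), and MGLL, the monoacylglycerol lipase, at 0.647 to 10.4 CPM (median 3.90). MGLL was lowest in pool 32, where PLIN2 was highest, and highest in pool 31, where PLIN2 was lowest.

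In the carnitine shuttle, CPT1A, which forms acylcarnitine at the outer mitochondrial membrane, was at 11.7 to 39.9 CPM (median 20.5). The muscle form CPT1B reached 1 CPM in 5 pools, and CPT1A held a median of 98.3% of the counts of both. SLC25A20, the carrier of the inner membrane, was at 29.8 to 94.5 CPM (median 48.3), and CPT2, which returns the chain to coenzyme A, at 25.3 to 57.5 CPM (median 44.0).

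The 9 beta-oxidation members all passed the limit, and their summed level was between 369 and 621 CPM. The acyl-CoA dehydrogenases had medians of 52.5 CPM (ACADM, medium chain), 46.8 CPM (ACADVL, very long chain), 26.7 CPM (ACADS, short chain) and 2.79 CPM (ACADL, long chain). HADHA and HADHB encode both subunits of the mitochondrial trifunctional protein and lie beside each other on chromosome 11, with 299 bases between them. HADHA was at 12.9 to 48.2 CPM (median 28.6) and HADHB at 59.5 to 125 CPM (median 75.9), both highest in pool 32. HADH, the short-chain hydroxyacyl-CoA dehydrogenase, was at 50.7 to 107 CPM (median 78.3). The thiolases ACAA1 of the peroxisome and ACAA2 of the mitochondrion had medians of 74.8 and 85.5 CPM. Apart from ACADL, each of these genes spanned less than 4-fold over the pools.

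Among the regulators, PPARD, a nuclear receptor activated by fatty acids, was at 0.290 to 7.35 CPM (median 1.95). PPARA, a receptor of the same family, reached 1 CPM in 5 pools, and PPARGC1A, a coactivator of mitochondrial genes, in 7. Together with ACACB, CPT1B and ACSL5 these were the 5 members below the abundance limit.

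The spread beyond counting error was described by the biological coefficient of variation (BCV) from edgeR, set against the trend for genes of the same abundance. The BCV was above the trend in 14 of 39 members (35.9%), compared with 28.5% of all retained genes. FABP5 had a BCV of 0.558, 2.56 times the trend, a ratio above that of 99.4% of retained genes. FASN was at 1.66 times the trend, SCD5 at 1.496 and FADS1 at 1.40. At the other end, LIPE, PNPLA2, AGPAT2 and ELOVL5 were at 0.649 to 0.697 times the trend. Of the 9 beta-oxidation genes, ACAA2 was the 1 above the trend, at 1.04 times.

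Pool 31 held the highest level of 8 members (20.5%, compared with 9.20% of all retained genes), namely FASN, ACACA, SCD, SCD5, FADS2, LPIN1, LIPE and MGLL. Pool 32 held that of 7 (17.9%, compared with 7.25%), namely PLIN2, CD36, SLC25A20, HADHA, HADHB, ACAA1 and ACAA2. FASN, SCD, FADS1 and MGLL were above their medians in pool 31 and below them in pool 32, PLIN2 the reverse, and ACACA was above its median in both. Pool 9 was highest for ELOVL1, ELOVL6 and FABP5.

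**Figure D2:**
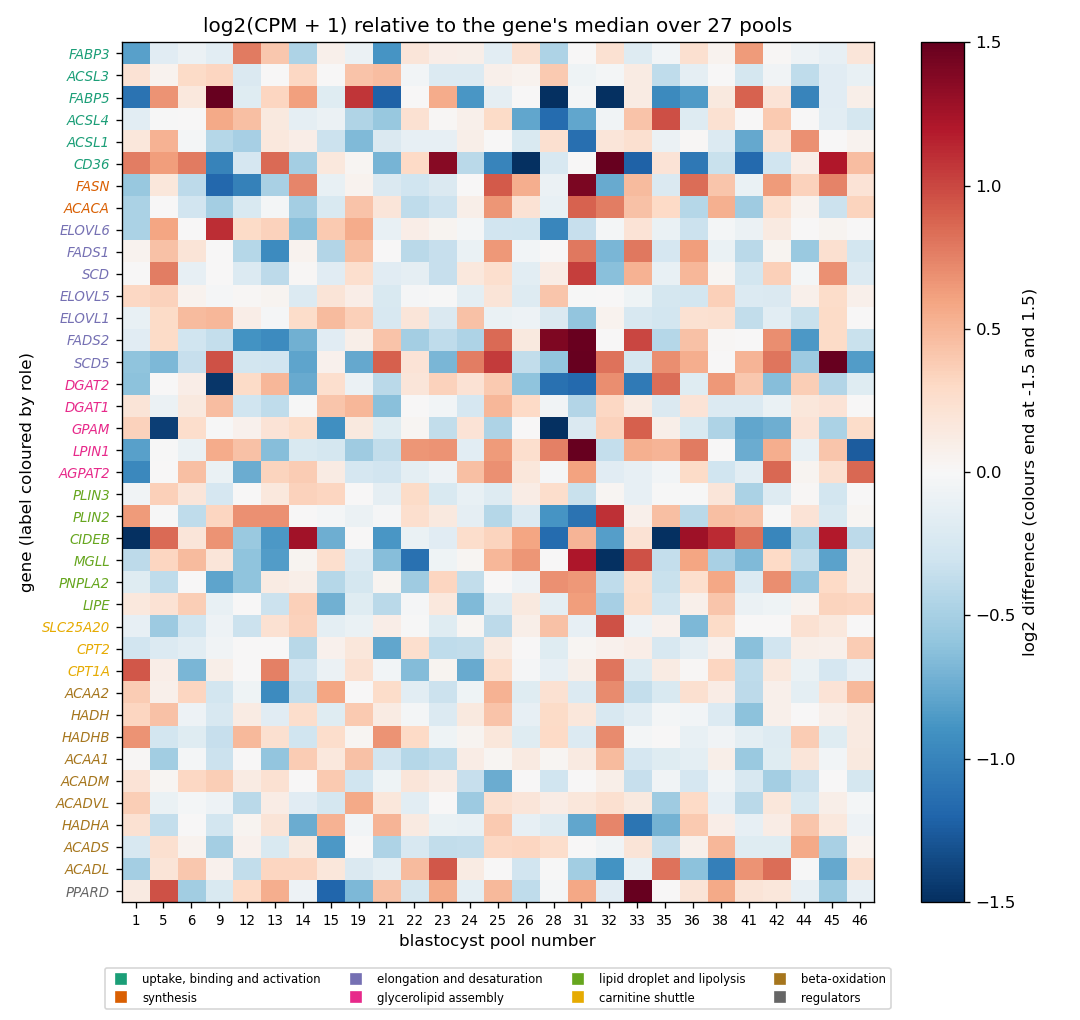
Level of the 39 retained members in each pool as log2(CPM + 1) minus the median of the gene over the 27 pools; rows are genes with labels coloured by role, columns are pools, red is above and blue below the median. Pool 31 is red for FASN, SCD, FADS2, LPIN1 and MGLL and blue for PLIN2 and DGAT2, pool 32 is red for PLIN2, CD36 and SLC25A20, and most rows of beta-oxidation genes are pale.

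Relations across the 27 pools were tested for 12 measures, each time over all retained genes with the edgeR quasi-likelihood test and Benjamini-Hochberg adjustment. The slope is the log2 change in CPM of a gene per unit of log2(CPM + 1) of the measure. It is given with its standard error (SE), and a gene was called at an adjusted p of 0.05 or less. The unit is close to a doubling where the measure lies well above 1 CPM, and is a doubling for the total count. By the study's methods both blastocysts of a pool were of 1 treatment and 1 IVF replicate, and blastocysts came only from the first few replicates. The pools were thus far more numerous than the replicates, and most pools shared a replicate with others. Pools thus share cultures, which the labels do not trace and the tests treat as independent, so p-values may be too small. All points of a relation come from the same libraries, and the share of counts in the 100 most counted genes differed between pools along with several members. Spearman rho with this share was -0.69 for PLIN2, -0.61 for DGAT2, 0.60 for MGLL, 0.59 for FADS2 and 0.51 for FASN (permutation test, adjusted p of 0.0033, 0.0123, 0.0123, 0.0124 and 0.046 over 30 relations). KRT8 and KRT18, both trophectoderm markers, were among those genes and took 1.52% to 3.83% of the counts. Each relation was therefore fitted again with this share as a covariate. Of 41 relations called, 3 were also called in every other setting tried, 9 in each case: FADS1 on SCD, PLIN2 on FASN, and FABP5 on interferon tau.

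SCD and FADS1 varied together. Both were high in pools 31 and 33 and low in pools 13 and 32. Per doubling of SCD, FADS1 was higher by 1.04 (SE 0.130) on the log2 scale, or 2.06-fold (edgeR, adjusted p = 6.17e-05). Spearman rho was 0.84 (permutation p = 1e-05, the smallest that the permutations can give, 0.00462 adjusted over 462 relations). Pearson r was 0.83 (permutation p = 1e-05, 0.00154 adjusted) and 0.81 without the 2 pools farthest from the median of SCD. Of 12309 genes, FADS1 had the highest rho with SCD, followed by DSC2 (0.82), KRT19 (0.82), DHCR7 (0.80) and ABHD14B (0.79). The slope was 1.07 without pool 31 (adjusted p = 0.00158) and 0.89 with the share of the 100 most counted genes as covariate (adjusted p = 0.00777).

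In the same fit FASN (1.16, SE 0.211, adjusted p = 0.0033), FADS2 (1.21) and MGLL (1.31) were also called as higher, and PLIN2 as lower (-0.76). These 5 of 38 members compare with 3.24% of all genes called, 1.89% with a positive and 1.35% with a negative slope. Without pool 31, or with the share of the 100 most counted genes as covariate, FADS1 was the 1 member called, and without pool 32 there were 3 (FASN, FADS1 and FADS2). SCD5 (1.54, SE 0.649, adjusted p = 0.196) and ELOVL5 (0.16, SE 0.113, adjusted p = 0.48) were not called.

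FASN and SCD were positively related as well, with a slope of SCD on FASN of 0.45 (SE 0.0906, edgeR, adjusted p = 0.00213). FADS1 (0.45), FADS2 (0.69), MGLL (0.69) and PNPLA2 (0.65) were called as higher with FASN, and PLIN2 as lower. These 6 of 38 members compare with 10.3% of all genes called, 5.85% positive and 4.44% negative. ACACA, the enzyme before FASN, had a slope of 0.31 (SE 0.129, adjusted p = 0.117), and ELOVL6, the enzyme that lengthens its product, one of -0.30 (SE 0.111, adjusted p = 0.084). Neither was called, although ACACA was without pool 32 (0.43, adjusted p = 0.0216). The genes most like FASN by rho were DAG1 (0.89), EEF2 (0.85), HNF4A (0.84), IGF2R (0.81) and SLC34A2 (0.80). Without pool 31 the members called were SCD (0.36, adjusted p = 0.0389), PLIN2 (-0.45, adjusted p = 0.0182) and ACADM (-0.31, adjusted p = 0.0444). With the share of the 100 most counted genes as covariate they were PLIN2 and ACADM, and SCD had an adjusted p of 0.0691.

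PLIN2 was lower where FASN was higher. Its slope on FASN was -0.51 (SE 0.1002, edgeR, adjusted p = 0.00206), and -0.36 with the share of the 100 most counted genes as covariate (adjusted p = 0.0462). Spearman rho was -0.64 (permutation p = 0.00044, 0.0197 adjusted), and Pearson r was -0.66 (permutation p = 0.00016, 0.00549 adjusted) and -0.58 without pools 9 and 31. With PLIN2 as the measure instead, FASN (-0.99, SE 0.173, adjusted p = 0.00077), SCD (-0.63), FADS1 (-0.71), FADS2 (-1.01), MGLL (-1.37) and LPIN1 (-0.83) were called, all as lower. This is 6 of 38 members, compared with 7.64% of all genes (3.22% positive, 4.43% negative). None of the 6 was called with the share of the 100 most counted genes as covariate, when the adjusted p of FASN was 0.41 and 1 gene of all was called. Without pool 31, 5 of them were called, LPIN1 being the exception, and without pools 31 and 32, the 2 farthest from the median of PLIN2, FADS1 and FADS2 were.

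Of PLIN3, ACSL3, PNPLA2 and DGAT2, none was called on PLIN2 by edgeR. PLIN3 had a slope of -0.06 (95% interval -0.25 to 0.12), ACSL3 one of -0.19 (adjusted p = 0.235) and PNPLA2 one of -0.68 (adjusted p = 0.086). DGAT2 had a positive slope of 0.63 (SE 0.210, adjusted p = 0.0611), and DESeq2 called it (adjusted p = 0.0237). DESeq2 called 2 members as higher with PLIN2 and 8 as lower. The other higher one was ACSL4 (0.47, adjusted p = 0.0167). Without pool 32 edgeR called ACSL4 too (0.59, adjusted p = 0.0206). The genes most like PLIN2 were ARL6IP5 (rho 0.83), DYRK3 (0.80), MOSPD1 (0.79), GNGT2 (0.79) and IL1RAPL2 (0.79), none of them a member.

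**Figure D3:**
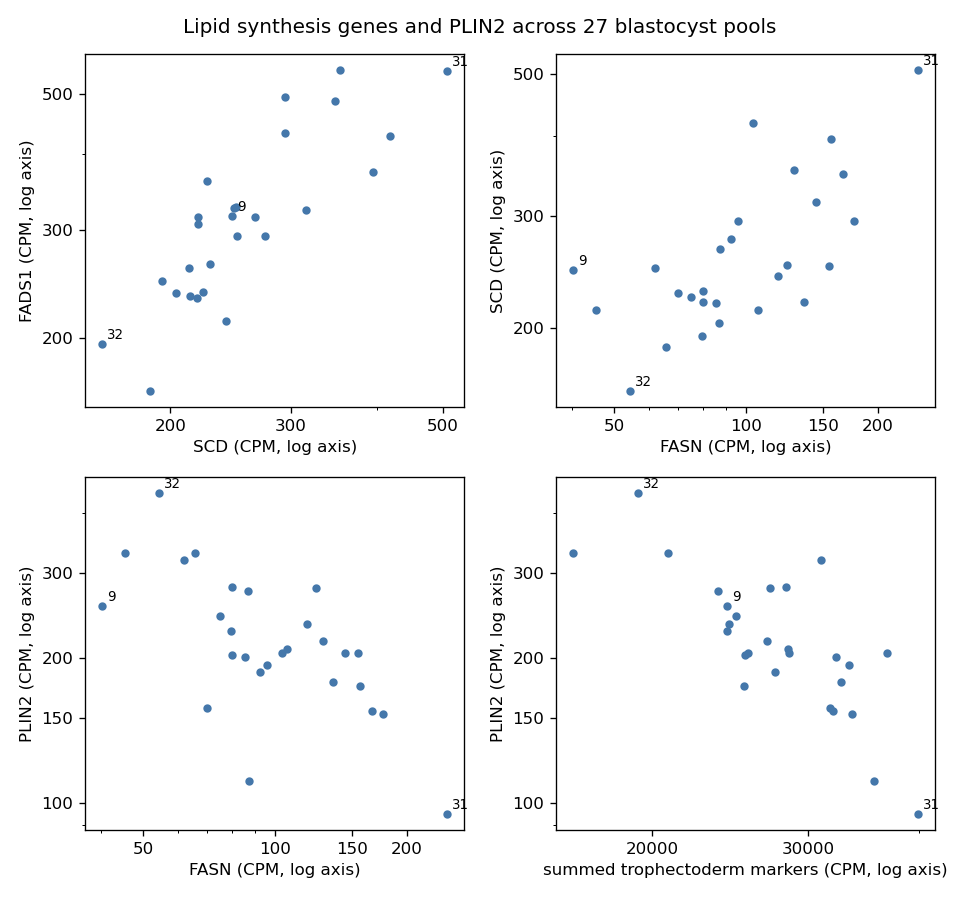
FADS1 against SCD, SCD against FASN, PLIN2 against FASN, and PLIN2 against the summed trophectoderm markers (CPM, log axes); each point is 1 of the 27 pools, and pools 9, 31 and 32 are numbered. FADS1 and SCD lie along a rising band (rho 0.84), PLIN2 lies along falling bands in both lower panels, and pools 31 and 32 sit at opposite ends.

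With FADS2 as the measure, FADS1 (0.54, SE 0.0927, adjusted p = 0.00365), SCD (0.44), FASN (0.56) and PLIN2 (-0.44) were called. That is 4 of 38 members, compared with 2.00% of all genes (1.28% positive, 0.715% negative). No member was called without pool 31, or with the share of the 100 most counted genes as covariate. FADS1 ranked 12 among 12309 genes by rho with FADS2 (0.69). How reads in the overlap of both genes were counted is not given in the sources used here. ELOVL5, the elongase between both steps, had a slope of 0.10 (SE 0.0657, adjusted p = 0.419). The genes most like FADS2 were CNN2 (0.74), P2RY2 (0.73), CEMIP (0.71), DOLPP1 (0.71) and LMAN2 (0.70).

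Members were also set against markers of the cell types of the blastocyst. A pool with fewer cells of a type and a pool with less RNA per cell cannot be told apart in these data. On the summed trophectoderm markers, PLIN2 had a slope of -1.12 (SE 0.196, edgeR, adjusted p = 0.00112), with a rho of -0.72 (permutation p = 4e-05, 0.00462 adjusted). Its Pearson r was -0.77 (permutation p = 1e-05, 0.00154 adjusted), and -0.71 without pools 12 and 31. FASN (1.54, SE 0.304, adjusted p = 0.00291), FADS1 (1.05), FADS2 (1.54), MGLL (1.94) and SCD (0.76) were called as higher. These 6 of 39 members compare with 6.33% of all genes (3.92% positive, 2.41% negative). PLIN2 was called in each other setting except 1, the covariate of the 100 most counted genes, in which no member was called and its slope was -0.87 (adjusted p = 0.189). Without pool 31, PLIN2 (-1.01) and FASN (1.30) were the 2 members called. Without pool 32, SCD was not called and the beta-oxidation gene ACAA1 was (0.62, adjusted p = 0.0241). With the mean of the log2 marker levels in place of their sum, FADS2, MGLL and SCD were not called (adjusted p of 0.0674, 0.0553 and 0.113). ELOVL6 was called as lower and PNPLA2 as higher in that setting, besides PLIN2, FASN and FADS1. KRT8 alone made up 67.5% of the trophectoderm sum at the median. Over all pools, with the summed markers, no beta-oxidation, carnitine shuttle or uptake gene was called.

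On the epiblast markers, 9 of 39 members were called, compared with 6.18% of all genes (2.66% positive, 3.52% negative). DGAT2 (1.18, SE 0.226, adjusted p = 0.00231), PLIN2 (0.80) and HADHA (0.66) were higher, and SCD (-0.72), FADS1 (-0.82), FADS2 (-1.21), FASN (-0.97), MGLL (-1.46) and LPIN1 (-1.15) were lower. Without pool 31, DGAT2 was the 1 member called (1.49, adjusted p = 0.014), and without pool 32 all but HADHA were (adjusted p = 0.126). With the share of the 100 most counted genes as covariate DGAT2 (1.06, adjusted p = 0.0459) and HADHA (0.93, adjusted p = 0.0496) were. With the mean of the log2 marker levels in place of their sum no member was called. POU5F1 alone made up 50.8% of the epiblast sum at the median.

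On the hypoblast markers, ELOVL6 (-0.47, SE 0.105, adjusted p = 0.00875) and FABP5 (-0.76, SE 0.203, adjusted p = 0.0274) were called, 2 of 39 members (5.13%), close to the 4.25% of all genes. Pools 9 and 25 lay farthest from the median of this measure. Pool 9 had the lowest hypoblast sum, 54.6 CPM, with FABP5 at 3.99 and ELOVL6 at 2.16 times their medians. Pool 25 had the highest, 405 CPM, with FABP5 at 0.909 and ELOVL6 at 0.816 times their medians. Without both pools, Pearson r was -0.11 for ELOVL6 and -0.03 for FABP5, and neither was called (adjusted p of 0.746 and 0.877). Leaving out pool 9 alone was not run. FASN, not called over all pools, was called as higher without pool 31 (0.61, adjusted p = 0.0377), with the share of the 100 most counted genes as covariate (0.66, adjusted p = 0.0074), and, as the 1 member, with the mean of the log2 marker levels. Of the 8 hypoblast markers 5 passed the abundance limit. The top marker of a pool, GATA6 by median level, made up 76.3% of the hypoblast sum at the median.

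FABP5 followed interferon tau, the signal by which the ruminant trophectoderm makes itself known to the mother. The summed level of IFNT2 and IFNT3 ranged from 7.09 CPM in pool 36 to 589 CPM in pool 9, the pool in which FABP5 was highest too. Per doubling of interferon tau, FABP5 was higher by 0.44 (SE 0.0636) on the log2 scale, or 1.36-fold (edgeR, adjusted p = 0.00014). Spearman rho was 0.77 (permutation p = 3e-05, 0.00462 adjusted), and Pearson r was 0.78 (permutation p = 2e-05, 0.00231 adjusted) and 0.71 without pools 9 and 14. FABP5 was the 1 member of 39 called (2.56%, compared with 2.27% of all genes), and its adjusted p lay between 1.4e-06 and 0.0246 in the 9 other settings. Its rho with the share of the 100 most counted genes was 0.09. Without pool 31, HADHA (-0.16, adjusted p = 0.0441) and HADHB (-0.12, adjusted p = 0.0473) were called besides FABP5.

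XIST, which is transcribed from the silenced X chromosome of female cells, ranged from 0.0484 CPM in pool 15 to 35.4 CPM in pool 5. The X-linked ACSL4 had a slope of 0.13 (SE 0.0429, edgeR, adjusted p = 0.0856) on XIST and was not called, while DESeq2 called it (adjusted p = 0.0462). Its rho was 0.52 (permutation p = 0.00634, 0.0638 adjusted), and its Pearson r was 0.54 (permutation p = 0.00338, 0.039 adjusted) and 0.53 without pools 15 and 21. The genes called were HADHB (-0.11, adjusted p = 0.0321) and ACAA2 (-0.13, adjusted p = 0.033), 2 of 39 members (5.13%), close to the 4.54% of all genes. Without pool 32 neither was called (adjusted p of 0.0645 and 0.0643). XIST was low in some pools, so slopes on it are not per doubling. With a pseudocount of 0.1 they were -0.0825 for HADHB and -0.0991 for ACAA2. HADHA was called besides them without pool 31 (-0.15, adjusted p = 0.0335). With the share of the 100 most counted genes as covariate HADHB, HADHA and FABP5 were called, and ACAA2 was not (adjusted p = 0.0691).

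**Figure D4:**
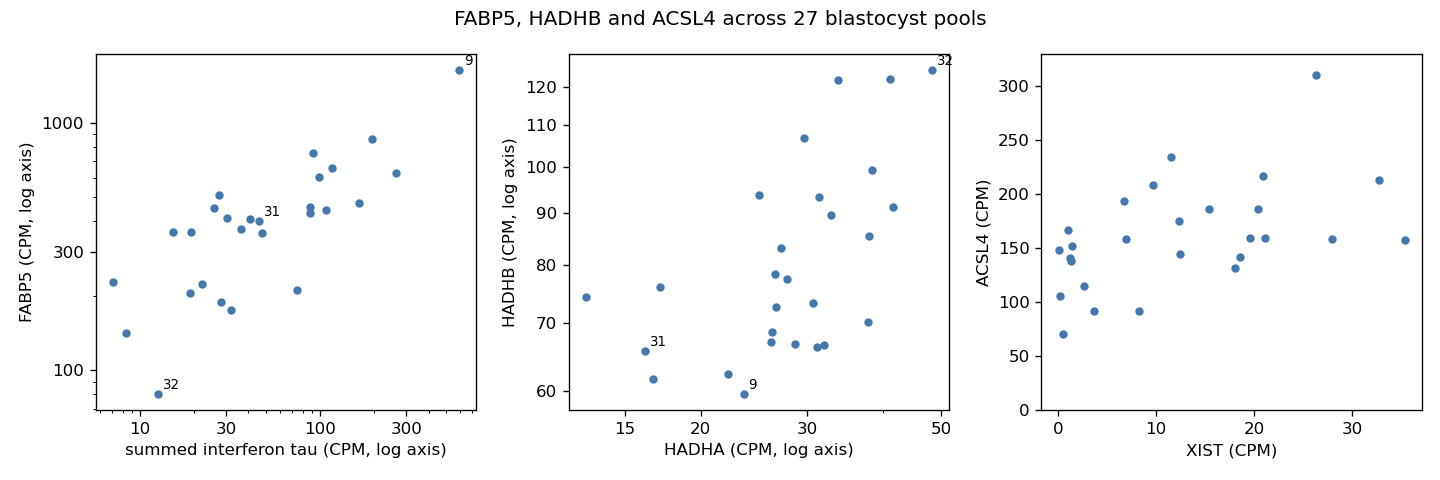
FABP5 against summed interferon tau and HADHB against HADHA (CPM, log axes), and ACSL4 against XIST (CPM, linear axes); each point is 1 of the 27 pools, and pools 9, 31 and 32 are numbered in the first and second panel. FABP5 rises with interferon tau from pool 32 to pool 9 (rho 0.77), while the other panels show looser relations.

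The last measures were 2 genes of fatty acid oxidation. With HADHA as the measure no member was called by edgeR (9 members had an unadjusted p under 0.05), compared with 0.252% of all genes, and DESeq2 called 2, HADHB and ACAA2. In other settings edgeR called HADHB with all counted genes (0.42, adjusted p = 0.0367) and ACAA2 with the share of the 100 most counted genes as covariate (0.57, adjusted p = 0.0369). HADHB, the other subunit, had a slope of 0.43 (SE 0.111, adjusted p = 0.07), and a rho of 0.62 (permutation p = 0.00085, 0.0229 adjusted). Its Pearson r was 0.59 (permutation p = 0.00131, 0.0189 adjusted), and 0.62 without pools 31 and 33. It ranked 45 among 12309 genes by rho, and the thiolase ACAA2 ranked 42 (rho 0.62). HADHA took between 14.8% (13.0 to 16.8) and 35.1% (32.8 to 37.4) of the counts of the pair. HADH (-0.06, 95% interval -0.29 to 0.18) and ACADVL (0.11, -0.14 to 0.37) had slopes whose intervals include 0. The genes most like HADHA were PFKFB4 (0.76), CUL2 (0.76), TMEM50A (0.73), ACTR6 (0.72) and IMPACT (0.71).

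With CPT1A as the measure edgeR called no member and 0.00% of all genes, and DESeq2 called none either. With all counted genes edgeR called no member and 1.27% of genes. An unadjusted p under 0.05 was reached by 2 members and 413 genes. The next steps of the pathway had slopes of 0.02 (CPT2, 95% interval -0.26 to 0.29), 0.18 (SLC25A20, -0.11 to 0.48) and 0.03 (ACADM, -0.25 to 0.31). The genes most like CPT1A were LLGL2 (0.66), ITGA6 (0.65), ZNF212 (0.64), SLC7A6 (0.64) and ZNF772 (0.63).

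The total count of the pool was tested in the same way as a technical measure. No member and 0.00% of all genes were called by edgeR or DESeq2, and 4 members and 340 genes had an unadjusted p under 0.05. With all counted genes edgeR called no member and 2.28% of genes. Pearson r with the number of genes detected was -0.52 for SCD, -0.51 for FADS2, 0.49 for PLIN2, 0.48 for DGAT2 and -0.45 for FASN. Their adjusted p was 0.0231, 0.0252, 0.0304, 0.0344 and 0.0483 (permutation test). For rho it was between 0.105 and 0.168. No fit used the number of genes detected.

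**Figure D5:**
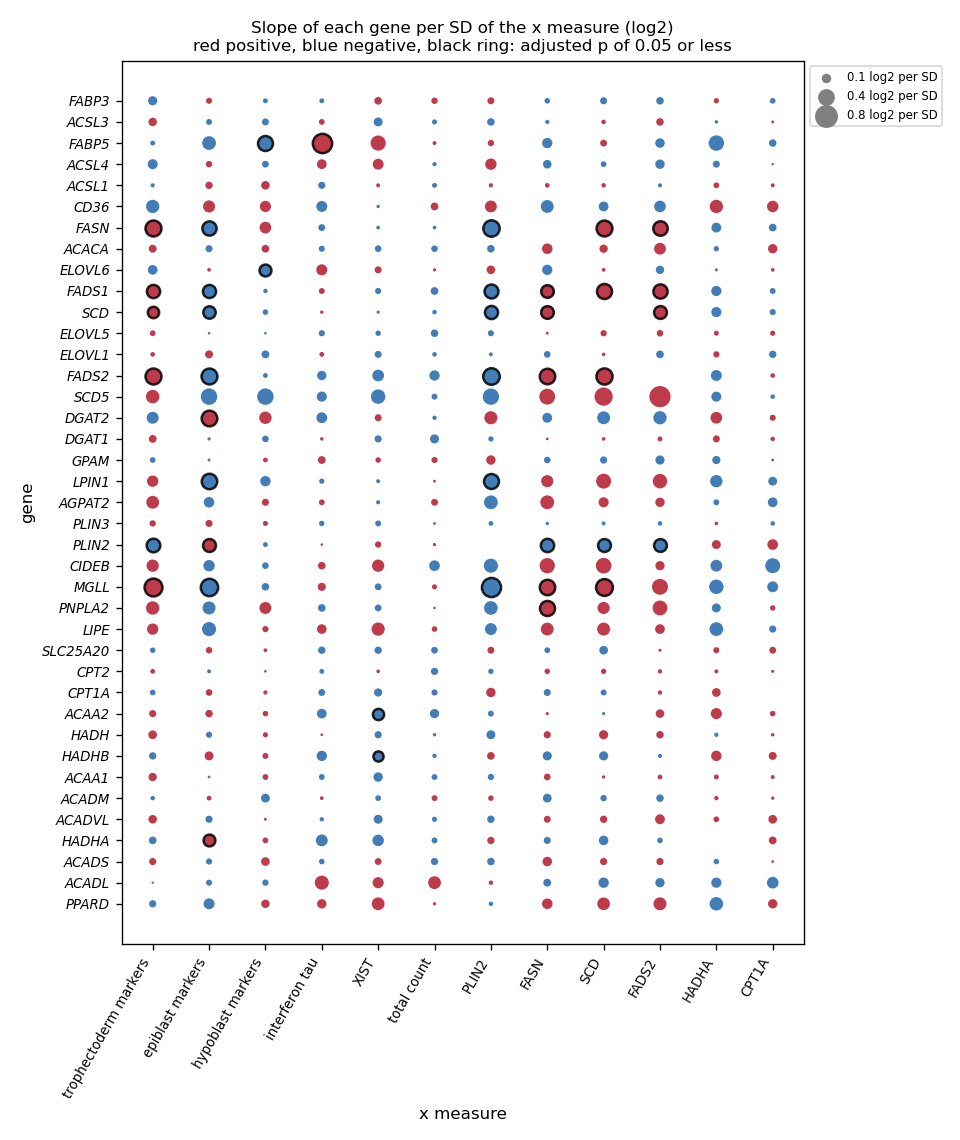
Slope of each retained member on each of the 12 measures, multiplied by the SD of the measure over the 27 pools so that columns can be compared; dot area grows with the size of the slope, red is positive, blue negative, and a black ring marks an adjusted p of 0.05 or less. Rings fall on 14 members, mostly FASN, SCD, FADS1, FADS2, MGLL and PLIN2 in the columns of trophectoderm markers, epiblast markers, PLIN2, FASN, SCD and FADS2, and none in those of total count, HADHA and CPT1A.

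Beside the members, a list of 74 other genes of the same pathways was examined, of which 73 were in the table and 57 passed the abundance limit. ACSS2, which makes acetyl-CoA from acetate and ranged from 2.15 to 95.2 CPM, had a slope of 2.58 (SE 0.353, edgeR, adjusted p = 8.07e-05) on SCD. INSIG1, which holds back the sterol regulatory element binding proteins, had a slope of 1.09 (SE 0.161, adjusted p = 0.000267). Both were called in each of the 9 other settings, with a highest adjusted p of 0.0315 and 0.0263. ACLY, HSD17B12 and RXRA were also called as higher with SCD, and AGPAT5, an acyltransferase, as lower. None of these 4 was called without pool 31, or with the share of the 100 most counted genes as covariate. The citrate carrier SLC25A1 (0.59, SE 0.118, adjusted p = 0.00209) and the retinoid receptor RXRA (1.40, SE 0.267, adjusted p = 0.0016) followed FASN, also in each of 9 other settings.

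In all, 5 of these 57 genes were called as higher and 1 as lower with SCD, compared with 3.24% of all genes in either direction. With FASN 8 were higher and 1 lower (10.3% of all genes), and with PLIN2 1 was higher and 8 lower (7.64%). Without pool 31, 2, 4 and 4 of these genes were called. Of the 9 called with PLIN2, the 6 with the smallest adjusted p were INSIG1 (-0.81), ACSS2 (-1.76), ACLY (-0.45), HACD2 (-0.59), AGPAT5 (0.60) and ACSL6 (-0.36). None of the 9 was called with the share of the 100 most counted genes as covariate.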

How the data were processed

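RNA of 27 pools of 2 blastocysts was sequenced. The authors amplified cDNA from the poly(A) end, used fastp for trimming and STAR for mapping to ARS-UCD2.0, and deposited raw counts per gene. No step removes duplicate molecules, so intervals cover counting error only. The labels do not give the treatment or the IVF replicate. Pools share IVF replicates by the study's methods, so they are not all separate cultures, and p-values measure the spread between these pools.

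CPM was computed from column totals, and a gene was retained when 12 pools reached 1 CPM. Slopes on log2(CPM + 1) of a measure were tested with the edgeR 4.0.16 quasi-likelihood test and TMM normalization, leaving the measured genes out, with Benjamini-Hochberg adjustment over all retained genes. Standard errors are the slope divided by the square root of F. Correlations used log2(CPM + 1) and 100000 two-sided permutations, adjusted over 462 relations. DESeq2 1.42.0, RLE normalization, all counted genes, a pseudocount of 0.1, the total count as covariate and leaving out the 2 farthest pools were tried as alternatives. Leaving out pool 31 or 32, the mean of log2 markers and the covariate of the 100 most counted genes were added after seeing the data.

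All 44 symbols matched RefSeq genes, whose ARS-UCD2.0 positions are given. Members and lists were chosen with earlier results of these data known. Every member was named with its level. In each fit, fixed partner genes and all members called were named, with the 5 genes of highest rho for a gene used as the measure and up to 6 other pathway genes by smallest adjusted p. On simulated counts for 12310 genes with the FASN levels as the measure, 92 of 100 genes with a slope of 1 and 48 of 100 with a slope of 0.5 were recovered, with 3 false calls. The changed genes were drawn from those with an expected count above 100 at the mean total count. Recovery of less counted genes was not tested. The number of false calls among pools that share IVF replicates or differ in library make-up was not tested. R 4.3.3, Python 3.11.15, numpy 2.4.6, pandas 2.3.3 and scipy 1.17.1 were used.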

Additional observations from a re-analysis of the deposited data

How the results depend on the processing

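Numbers of members called changed most with the pools and with library make-up. Without the 2 pools farthest from the median of the measure, 1 member was called on trophectoderm markers, 2 on PLIN2, 2 on SCD and 0 on epiblast markers, hypoblast markers, XIST and FADS2. Without pool 31 there were 2 on trophectoderm markers, 1 on epiblast markers, 3 on interferon tau, 3 on FASN, 1 on SCD and 0 on FADS2, and without pool 32 there were 0 on XIST and 3 on SCD. With the share of the 100 most counted genes as covariate there were 0 on trophectoderm markers, PLIN2 and FADS2, 2 on epiblast markers, interferon tau and FASN, and 1 on SCD and HADHA. With the mean of log2 marker levels there were 0 on epiblast and 1 on hypoblast markers. DESeq2 called 1 on hypoblast markers, 4 on interferon tau, 4 on XIST, 10 on PLIN2, 8 on FADS2 and 2 on HADHA. With all counted genes there were 3 on interferon tau and 1 on HADHA. The cause was not tested. Of the other 76 such counts none differed by more than 1.5 times, but an equal count could hold other members. On FASN without the 2 farthest pools 5 members were called, and 3 of these were shared with the fit over all pools. The new ones were CIDEB (1.24, adjusted p = 0.0234) and HADHB (-0.35, adjusted p = 0.0406). On trophectoderm markers with the mean of log2 marker levels 5 were called and 3 were shared. Over 5 slopes near 0 on CPT1A the sign turned, namely ACADM (-0.0745) and SLC25A20 (-0.0280) without the farthest pools, SLC25A20 (-0.0528) and CPT2 (-0.0020) without pool 32, and CPT2 (-0.0182) with the total count as covariate. RLE normalization and a pseudocount of 0.1 changed no call among the 56 slopes compared. The 39 members retained became 41 at 0.5 CPM and 37 at 2 CPM. Levels per kilobase were not run, since the annotation used gives no transcript lengths. No paired analysis was possible because the labels give no groups. At these totals, members at or below about 1 CPM rest on few counts.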

Other observations

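Other pathway genes gave values that belong to no comparison above. Of the 74 listed, ACOT1 was not matched to a row, and FABP1, of liver, and PLIN4, of adipocyte droplets, had no count in any pool. Further genes known from adipose tissue were near the floor, with medians of 0 CPM for FABP4, CIDEC and PLIN5, 0.0336 CPM for PLIN1 and 0.436 CPM for PPARG. DBI, an acyl-CoA binding protein, was at 955 to 2045 CPM. On the trophectoderm markers 7 of the 57 were called by edgeR, all as higher (6.33% of all genes were called), led by ACSL6 (0.82, SE 0.136, adjusted p = 0.00059), ACLY (0.76), BSCL2 (0.81), ECI2 (1.48), HACD2 (0.93) and INSIG1 (1.05), and 3 of the 7 were called without pool 31 and none with the share of the 100 most counted genes as covariate. On the epiblast markers, 2 were called as higher and 3 as lower (6.18% of all genes). They were AGPAT5 (1.04, SE 0.166, adjusted p = 0.000537), ACOT2 (3.32), AGPAT3 (-0.96), ACSS2 (-2.11) and HACD1 (-1.05). Without pool 31 AGPAT3 and AGPAT5 were called, without pool 32 these and ACSS2, and with the share of the 100 most counted genes as covariate, or without the 2 farthest pools, AGPAT5. With the mean of the log2 marker levels none was. On the hypoblast markers LPIN2 (0.77, adjusted p = 0.000895) and PPARGC1B (0.71) were called as higher, and DBI (-0.31), HACD3 (-0.33) and ACOT13 (-0.54) as lower, compared with 4.25% of all genes, and none of the 5 was called without pools 9 and 25. ECHS1 was called as lower with interferon tau (-0.14, adjusted p = 0.0345, 2.27% of all genes called), though not without pool 32 or with the total count as covariate. HACD2 was called as lower with XIST (-0.16, adjusted p = 0.0245, 4.54% of all genes called). It was not called without pools 15 and 21 or with the share of the 100 most counted genes as covariate. ACSS2 was the 1 called with FADS2 (1.17, adjusted p = 0.0267, 2.00% of all genes called). It was not called without pool 31, without pools 28 and 31, or with the share of the 100 most counted genes as covariate.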
